A study of Mus musculus with 2 samples.

Results

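Aminoacyl-tRNA synthetases are the enzymes that join each amino acid to its transfer RNA, and their genes were described here in mouse heart. The members are all genes whose symbol is 1 capital letter followed by ars and nothing, 1 or 2, together with Farsa, Farsb, Eprs and Ears2. The rule found 37 of 55536 genes, 20 of them cytosolic enzymes and 17 mitochondrial enzymes, whose symbols end in 2. Total RNA of heart tissue was sequenced from 2 female mice of the strain B6CASTF1/J, a hybrid of C57BL/6 and CAST parents, both aged 2 months and with no treatment given in the labels. The labels number the mice as separate biological replicates of 1 group (n = 2), with 1 library each from 300 ng of RNA after ribosomal RNA reduction and with ERCC spike-ins, which are synthetic transcripts of known amount. There is no second condition, so the data give the level of each gene, the cytosolic enzyme against the mitochondrial one, and the spread between 2 animals of 1 kind. Tissue was taken whole, so more cells of a type and more RNA per cell cannot be told apart.

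Protein synthesis in a heart muscle cell runs in 2 compartments. The cytosol makes nearly all proteins, among them those of the sarcomere, while mitochondria, which fill much of the cell, make a few subunits of the respiratory chain on ribosomes of their own. Each compartment needs its tRNAs charged with every amino acid, and in mammals most amino acids have a pair of synthetase genes, both nuclear, of which the mitochondrial enzyme is imported after translation. Gars and Kars are exceptions, since each gene makes both the cytosolic and the mitochondrial enzyme. Qars has no mitochondrial partner: in mitochondria Ears2 charges the glutamine tRNA with glutamate, and an amidotransferase built from Gatb, Gatc and Qrsl1 turns it into glutamine. Eprs carries the glutamyl and prolyl enzymes in 1 protein. Several cytosolic enzymes, Eprs, Iars, Lars, Mars, Qars, Rars, Kars and Dars, sit together in the multi-synthetase complex. Synthetases also fall into class I and class II by the fold of their catalytic domain.

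Reads on genes numbered 41789989 for animal 2 and 41862353 for animal 1. The 6 cardiomyocyte markers (Myh6, Actc1, Tnnt2, Tnni3, Ryr2, Myl2) summed to 29946 TPM in animal 2 and 25829.5 TPM in animal 1, where TPM is the abundance of transcripts corrected for length and library size. The 4 endothelial markers summed to 158 TPM in animal 2 against 118 TPM in animal 1, and the 4 fibroblast markers to 299 TPM in animal 2 and 222 TPM in animal 1. TPM tended to be higher in animal 2: its log2 ratio to animal 1 had a median of 0.22 over the 16133 genes that reached 20 reads, and that shift of scale lies in every TPM value given here. All 37 synthetase genes were above 1 TPM in both animals, and in all 37 the TPM was higher in animal 2. Ratios of scaled reads, used for the comparison of the animals, are free of this shift.

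The promoter sequences of 26 of the 37 members were found in the RefSeq table of GRCm38.p6 (12 cytosolic, 14 mitochondrial). The 250 bases before the RefSeq start were searched on both strands for TGATGNAAN, the element bound by ATF4 with its partners in genes of the amino acid response, for the consensus palindrome of NRF1, AAGATGGCG (the YY1 site) and CCGGAAG (the ETS core). None of these motifs contains another. TGATGNAAN was found in 3 of the 12 cytosolic genes, Aars, Gars and Tars, and in 0 of the 14 mitochondrial genes, beside 3.61% of 17492 protein-coding genes. CCGGAAG was found in 3 of 12 cytosolic genes (Farsa, Gars, Sars) and 3 of 14 mitochondrial genes (Cars2, Mars2, Sars2), beside 10.2% of all. AAGATGGCG was found in Farsa alone among the 26, beside 0.840% of all, and the NRF1 palindrome in 0 of the 26, beside 1.21% of all. A match is a string of letters and not a shown binding site, and 202 of the 250 bases searched for Aars lie in exons of that gene in the M21 annotation. Exons of the gene or of another gene also cover all 250 bases for Ears2, Fars2 and Qars. They cover 218 bases for Yars, 207 for Kars, 201 for Iars2 and 141 for Tars2. The windows of Aars, Qars and Tars2 lie inside the annotated genes. Those of Gars, Farsa, Mars2 and Lars2 hold 0 exon bases, and that of Tars 7.

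Gars and Tars are printed for the amino acid response element, Farsa for holding a pair of motifs, Mars2 as a mitochondrial gene with the ETS core, and Lars2 as the member that differed most between the animals. Capitals mark the motif letters, on whichever strand they match, and each sequence runs 5′ to 3′ toward the gene. In Gars both motifs are in reverse orientation, and in Farsa only CCGGAAG is.
Gars promoter, chr6:55037751-55038000, plus strand, with CCGGAAG and then TGATGNAAN in reverse orientation: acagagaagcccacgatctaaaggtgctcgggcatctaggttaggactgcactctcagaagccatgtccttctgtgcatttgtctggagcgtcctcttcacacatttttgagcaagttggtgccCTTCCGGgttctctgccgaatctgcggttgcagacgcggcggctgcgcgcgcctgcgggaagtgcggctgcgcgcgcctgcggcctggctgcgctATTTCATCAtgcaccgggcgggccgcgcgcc
Tars promoter, chr15:11399659-11399908, minus strand, with TGATGNAAN in reverse orientation: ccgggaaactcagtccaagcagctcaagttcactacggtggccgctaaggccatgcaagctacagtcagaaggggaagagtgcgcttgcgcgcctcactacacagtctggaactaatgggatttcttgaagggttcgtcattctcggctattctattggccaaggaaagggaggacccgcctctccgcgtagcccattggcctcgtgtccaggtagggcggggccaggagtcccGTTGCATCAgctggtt
Farsa promoter, chr8:84856736-84856985, plus strand, with AAGATGGCG and then CCGGAAG in reverse orientation: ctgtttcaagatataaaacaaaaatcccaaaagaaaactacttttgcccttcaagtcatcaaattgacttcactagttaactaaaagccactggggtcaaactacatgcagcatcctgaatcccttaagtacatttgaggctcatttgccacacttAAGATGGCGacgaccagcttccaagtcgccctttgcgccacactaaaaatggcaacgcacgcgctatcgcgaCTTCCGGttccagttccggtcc
Mars2 promoter, chr1:55236927-55237176, plus strand, with CCGGAAG: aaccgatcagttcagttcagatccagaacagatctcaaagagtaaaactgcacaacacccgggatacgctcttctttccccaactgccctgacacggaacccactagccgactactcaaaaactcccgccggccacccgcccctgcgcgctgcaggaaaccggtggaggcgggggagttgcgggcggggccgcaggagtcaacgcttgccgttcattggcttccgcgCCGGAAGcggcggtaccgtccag
Lars2 promoter, chr9:123366677-123366926, plus strand, with none of the motifs: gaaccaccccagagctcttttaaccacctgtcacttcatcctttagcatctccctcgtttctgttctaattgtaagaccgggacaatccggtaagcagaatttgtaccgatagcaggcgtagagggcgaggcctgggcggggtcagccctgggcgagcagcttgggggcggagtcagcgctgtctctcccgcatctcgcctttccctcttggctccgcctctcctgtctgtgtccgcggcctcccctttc

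As a group the synthetases were moderately expressed. Their share of all TPM was 0.0670% in animal 2 and 0.0557% in animal 1. Single genes ranged over means of 1.86 to 46.6 TPM, and 32 of the 37 stood above 6.10 TPM, the median of 13654 nuclear protein-coding genes with at least 20 reads. The median member was at 13.97 TPM in animal 2 and 11.95 TPM in animal 1. Coordinates below are those of mm10 with the GENCODE M21 annotation.

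Cytosolic enzymes summed to 412 TPM in animal 2 and 360.5 TPM in animal 1, with a mean of 386 ± 36.6 TPM (SD, n = 2). Kars (ENSMUSG00000031948.14; chromosome 8, 111993443 to 112011323), the lysyl enzyme of both compartments, was the highest, at 44.1 TPM in animal 2 and 35.6 TPM in animal 1, above 89.7% of protein-coding genes. Nars (chromosome 18, 64499647 to 64516652), which charges asparagine tRNA, followed at 37.3 TPM in animal 2 and 30.4 TPM in animal 1. These 2 overlap between animals, so their order is not set by the data, but both values of Nars lay above those of the next gene. That gene, Qars (chromosome 9, 108507706 to 108515941), which charges glutamine tRNA, stood at 30.1 TPM in animal 2 and 28.3 TPM in animal 1. Sars (chromosome 3, 108424865 to 108445209), the seryl enzyme, had 30.5 TPM in animal 2 and 25.9 TPM in animal 1. Eprs (chromosome 1, 185363044 to 185428360) was at 28.1 TPM in animal 2 against 27.1 TPM in animal 1, and both of its values lay above those of Dars, the aspartyl enzyme next in order.

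The middle of the cytosolic order was dense. Dars averaged 24.17 ± 1.499 TPM, the glycyl gene Gars (chromosome 6, 55038007 to 55079500) 22.7 ± 2.25 TPM with 24.2 TPM in animal 2 and 21.1 TPM in animal 1, Iars (isoleucine) 22.2 ± 1.09 TPM and Lars (leucine) 21.7 ± 0.566 TPM (SD, n = 2 each). Mars (methionine) averaged 17.9 ± 1.21 TPM, Rars (arginine) 14.8 ± 2.39 TPM, Hars (histidine) 13.0 ± 1.43 TPM and Aars (alanine) 12.8 ± 1.81 TPM. Wars (tryptophan) was at 12.2 ± 1.34 TPM, Yars (tyrosine) at 11.2 ± 0.481 TPM and Vars (valine) at 11.2 ± 0.983 TPM. Of the 19 neighbouring pairs in the cytosolic order only 5 were separated, in the sense that both animals of the higher gene exceeded both of the lower one.

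By the main TPM the lowest cytosolic genes were Farsa, Cars and Tars. Tars (chromosome 15, 11382301 to 11399665), the threonyl enzyme, had 8.35 TPM in animal 2 against 7.20 TPM in animal 1, and Cars (chromosome 7, 143557230 to 143600090), the cysteinyl enzyme, 9.44 TPM in animal 2 and 7.46 TPM in animal 1. A second threonyl gene outside the symbol rule, Tarsl2, stood above Tars, at 13.1 TPM in animal 2 and 11.6 TPM in animal 1. Farsa and Farsb encode the subunits of 1 enzyme, the cytosolic phenylalanyl synthetase, and were not at the same level. Farsb (chromosome 1, 78417975 to 78488897), the beta subunit, had 20.5 TPM in animal 2 against 16.6 TPM in animal 1, and Farsa (chromosome 8, 84856989 to 84869257), the alpha subunit, 9.60 TPM in animal 2 and 8.95 TPM in animal 1. The ratio of Farsb over Farsa was 2.14 in animal 2 and 1.86 in animal 1, against 3.25 in animal 2 and 2.79 in animal 1 in the second quantification, an estimate the authors made with another method.

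Mitochondrial enzymes were lower, at a sum of 257 TPM in animal 2 and 197 TPM in animal 1, with a mean of 227 ± 42.7 TPM (SD, n = 2). The sum of the cytosolic genes over that of the mitochondrial genes was 1.60 in animal 2 and 1.83 in animal 1. The median gene was at 19.6 TPM in animal 2 and 16.8 TPM in animal 1 among cytosolic enzymes, and at 10.1 TPM in animal 2 and 8.93 TPM in animal 1 among mitochondrial ones. These are levels of different genes in the same animals and are given as a description, with no test. Leaving out the dual genes Gars and Kars lowered the ratio of sums to 1.44 ± 0.146, and leaving out Lars2, described below, raised it to 2.14 ± 0.00303. In the second quantification, with its higher value for Lars2, the ratio was 0.982 in animal 2 and 1.47 in animal 1, so in animal 2 the mitochondrial sum was the higher one.

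**Figure D1:**
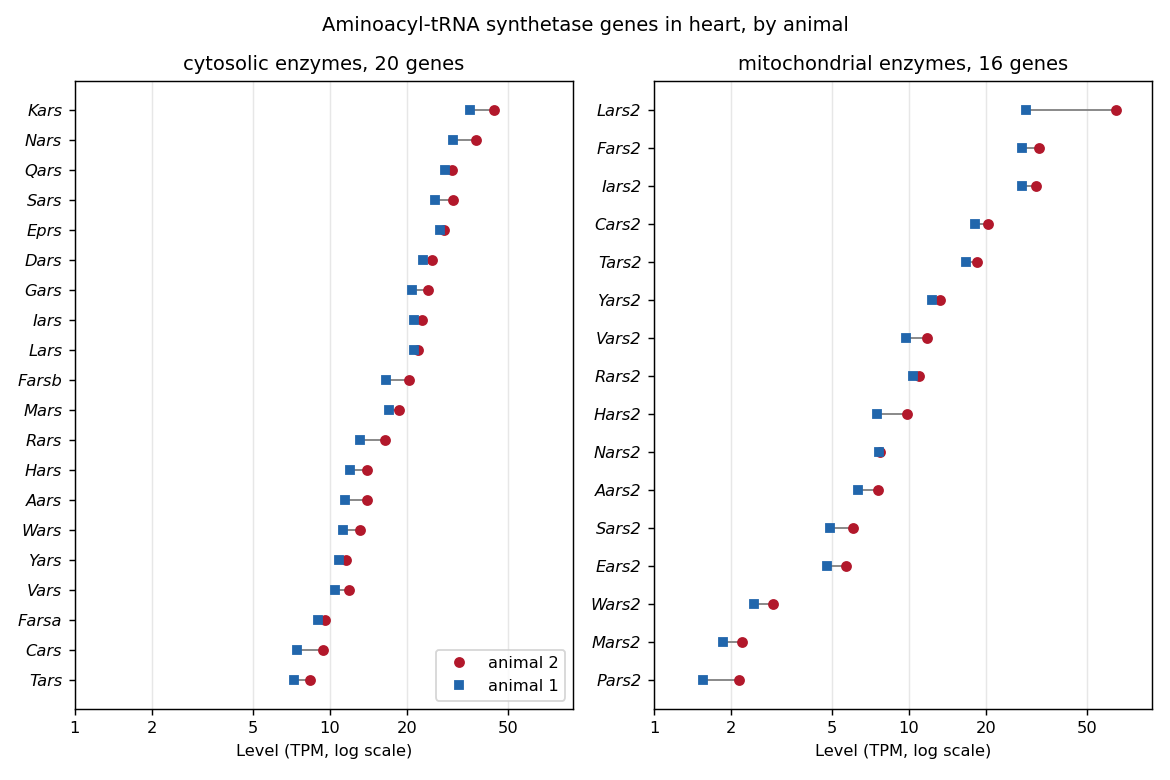
Level of each synthetase gene in TPM on a log axis, with cytosolic enzymes in the left panel and mitochondrial enzymes in the right one; circles are animal 2, squares animal 1, and a line joins the animals. Lars2 runs between 64.6 TPM in animal 2 and 28.7 TPM in animal 1, the widest gap of the 36 genes drawn, and mitochondrial enzymes reach lower levels than any cytosolic one.

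At the top of the mitochondrial order stood 3 genes near the level of the highest cytosolic ones. Lars2 (ENSMUSG00000035202.8; chromosome 9, 123366927 to 123462666), the mitochondrial leucyl enzyme, had 64.6 TPM in animal 2 and 28.7 TPM in animal 1. Fars2 (chromosome 13, 36117412 to 36726280), the phenylalanyl enzyme, which in mitochondria is a single chain, had 32.2 TPM in animal 2 and 27.6 TPM in animal 1. Iars2 (chromosome 1, 185284726 to 185329396), for isoleucine, had 31.5 TPM in animal 2 and 27.7 TPM in animal 1. Fars2 and Iars2 did not differ beyond their spread, and both lay above Cars2, the cysteinyl enzyme, at 20.5 TPM in animal 2 and 18.1 TPM in animal 1. Tars2 (threonine) came next, with 18.5 TPM in animal 2 and 16.7 TPM in animal 1. Of the 10 highest members 3 were mitochondrial, and of the 10 lowest 8.

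Between these and the lowest genes the mitochondrial enzymes spread over a wide range. Yars2 (tyrosine) averaged 12.8 ± 0.700 TPM, Vars2 (valine) 10.7 ± 1.44 TPM, Rars2 (arginine) 10.7 ± 0.445 TPM and Hars2 (histidine) 8.62 ± 1.64 TPM (SD, n = 2 each). Nars2 (asparagine) stood at 7.66 ± 0.0283 TPM, Aars2 (alanine) at 6.92 ± 0.898 TPM, Sars2 (serine) at 5.47 ± 0.806 TPM and Ears2 (glutamate) at 5.21 ± 0.643 TPM. The 3 lowest of all members were mitochondrial. Wars2 (chromosome 3, 99141068 to 99239186), for tryptophan, had 2.92 TPM in animal 2 and 2.47 TPM in animal 1. Mars2 (chromosome 1, 55237177 to 55248470), for methionine, had 2.21 TPM in animal 2 against 1.86 TPM in animal 1, and Pars2 (chromosome 4, 106651069 to 106655282), for proline, 2.16 TPM in animal 2 and 1.56 TPM in animal 1. Even Pars2, with the fewest reads, had 117 reads in animal 2 and 115 in animal 1, far above the 3 reads that a count of 0 allows.

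The cytosolic enzyme of an amino acid was not always the higher one. For 16 amino acids with 1 member gene of each kind, both values of the cytosolic gene lay above both values of the mitochondrial gene for 10, and both lay below for 5. These counts take threonine as Tars against Tars2 and leave out Tarsl2, which had 13.1 TPM in animal 2 and 11.6 TPM in animal 1. For valine the values overlapped across animals, although within each animal Vars was the higher, at 1.01 times Vars2 in animal 2 and 1.08 times in animal 1. The genes of a pair are not replicates, and the glutamate and proline pairs share Eprs. Excess of the cytosolic gene was greatest for proline, where Eprs over Pars2 was 13.0 in animal 2 and 17.4 in animal 1. Mars over Mars2 followed, at 8.48 in animal 2 and 9.15 in animal 1, and then Eprs over Ears2, at 4.96 in animal 2 and 5.70 in animal 1, and Sars over Sars2, at 5.05 in animal 2 and 5.28 in animal 1, whose order turned between the animals. Pars2, Mars2 and Ears2 were all among the 4 lowest members.

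At the other end of the order the mitochondrial gene was higher. Cars over Cars2 was 0.461 in animal 2 and 0.413 in animal 1, and Tars over Tars2 was 0.451 in animal 2 and 0.432 in animal 1. The threonine order is that of Tars alone, with Tarsl2 left out. Lars over Lars2 was 0.342 in animal 2 and 0.742 in animal 1, Iars over Iars2 0.729 in animal 2 and 0.772 in animal 1, and Yars over Yars2 0.872 in animal 2 and 0.887 in animal 1. In the second quantification all 5 stayed below 1 in both animals, but the threonine pair came close to it, at 0.944 in animal 2 and 0.825 in animal 1. Counted over protein-coding transcripts alone, the leucine pair was at 0.820 in animal 2 and 1.11 in animal 1, so the animals fell on both sides of 1. The leucine order thus depended on which transcripts were counted.

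**Figure D2:**
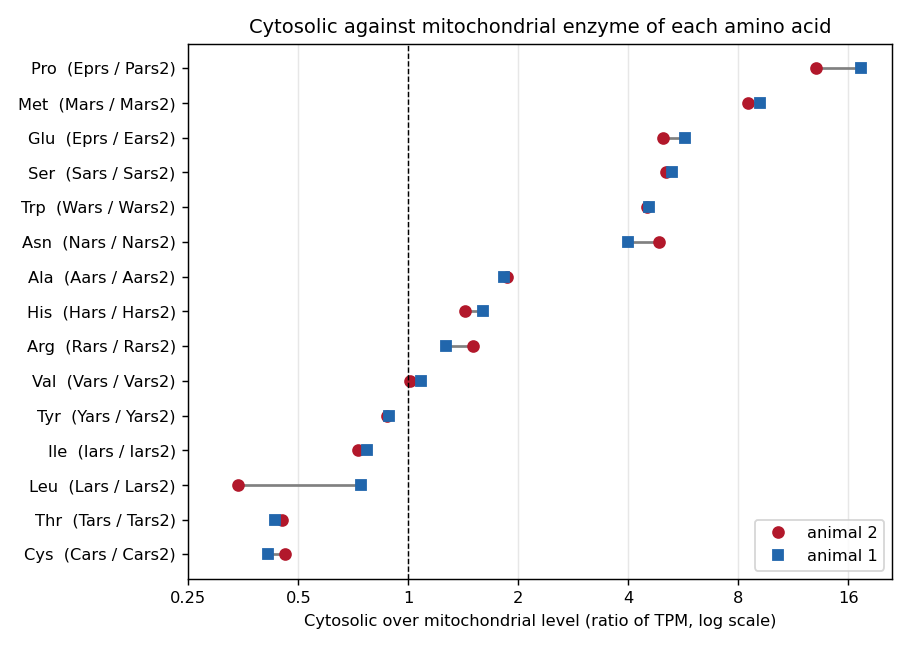
Cytosolic over mitochondrial level, as a ratio of TPM on a log axis, for 15 amino acids; circles are animal 2, squares animal 1, and the dashed line marks equal levels. The top row, Eprs over Pars2, reaches 13.0 in animal 2 and 17.4 in animal 1, and the 5 lowest rows lie left of the line in both animals.

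Enzymes of the multi-synthetase complex had the higher median within the cytosolic set. The 8 genes had a median of 24.1 TPM in animal 2 against 22.3 TPM in animal 1 and summed to 208 TPM in animal 2 and 187 TPM in animal 1. The 12 other cytosolic genes had a median of 13.5 TPM in animal 2 and 11.3 TPM in animal 1, with a sum of 204.5 TPM in animal 2 and 174 TPM in animal 1. The sets overlap gene by gene, since Kars leads the complex and Nars, outside it, comes second. Of the non-enzyme scaffolds, Aimp1 had 20.1 TPM in animal 2 and 18.2 TPM in animal 1, Aimp2 13.3 TPM in animal 2 against 10.6 TPM in animal 1, and Eef1e1 5.10 TPM in animal 2 and 4.89 TPM in animal 1. Class I and class II, with Eprs left out since it holds both, had close medians, 13.2 TPM for class I and 14.0 TPM for class II in animal 2, and 11.7 TPM for each in animal 1.

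Genes that work beside the synthetases ranged more widely. The amidotransferase genes that complete the glutamine tRNA in mitochondria stood above their partner Ears2, with Gatb at 20.1 TPM in animal 2 and 17.3 TPM in animal 1, Qrsl1 at 12.8 TPM in animal 2 against 10.6 TPM in animal 1, and Gatc at 7.98 TPM in animal 2 and 6.59 TPM in animal 1. Mtfmt, which formylates the initiator methionine in mitochondria, was low like Mars2, at 2.74 TPM in animal 2 and 2.66 TPM in animal 1. By the main TPM the elongation factors Tufm and Eef1a2 lay above every synthetase. That order was not looked at in the second quantification, where Lars2 was at 270 TPM in animal 2 and 111 TPM in animal 1. Tufm, which brings charged tRNA to the mitochondrial ribosome, had 119 TPM in animal 2 against 103 TPM in animal 1, and the muscle form of its cytosolic counterpart, Eef1a2, 631 TPM in animal 2 and 523 TPM in animal 1. In the amino acid response list, Atf4, its transcription factor, had 34.5 TPM in animal 2 and 26.3 TPM in animal 1, the serine hydroxymethyltransferase gene Shmt2 18.7 TPM in animal 2 against 15.1 TPM in animal 1, and the transporter subunit gene Slc3a2 18.0 TPM in animal 2 and 14.3 TPM in animal 1.

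Between the animals the synthetases differed little, with the exception of Lars2. Reads of a gene in animal 2 were set against those in animal 1 with a two-sided exact binomial test on TMM-scaled library sizes, with p-values adjusted over all 16133 genes by the method of Benjamini and Hochberg. It compares 2 libraries and not conditions, and sees counting error alone. Without a fold minimum 2 of 37 members passed (5.41%), beside 11.1% of all genes tested (6.5% higher in animal 2 and 4.65% higher in animal 1). Lars2 was higher in animal 2, with 7901 reads in animal 2 against 3878 in animal 1, a fold of 1.93 (95% interval 1.86 to 2.01; adjusted p = 4.76e-259, exact binomial test). Eprs was lower in animal 2, with 4370 reads in animal 2 against 4484 in animal 1, a fold of 0.924 (0.886 to 0.964; adjusted p = 0.00328, exact binomial test). Scaled by total gene reads the Eprs call was lost, at a fold of 0.976 (adjusted p = 0.504, exact binomial test), and the 6 members that passed (Aars, Cars, Farsb, Iars, Kars, Lars2) were all higher in animal 2. With the added minimum of 2-fold 0 of 37 members passed, beside 1.3% of all genes tested (0.446% higher in animal 2 and 0.855% higher in animal 1).

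For the 35 members reported here other than Lars2 the fold of animal 2 over animal 1 lay between 0.896 and 1.12, and the widest 95% intervals reached 0.739 and 1.28. The median log2 ratio was -0.0071 over the 20 cytosolic genes, 7 of them above 0, and -0.030 over the 17 mitochondrial genes, 7 of them above 0, beside -0.0024 over all genes tested. Signs this near 0 turned with the scaling: by total gene reads the medians were 0.072 for cytosolic and 0.050 for mitochondrial genes, where that of all genes was 0.077. After Lars2 the highest ratios were those of Cars, with 513 reads in animal 2 and 433 in animal 1 (log2 ratio 0.17), and Rars2, with 484 reads in animal 2 and 420 in animal 1 (0.13). The lowest of the 35 were those of Nars2, with 483 reads in animal 2 and 511 in animal 1 (-0.16), and Yars2, with 649 reads in animal 2 and 674 in animal 1 (-0.13). None of these 4 passed.

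**Figure D3:**
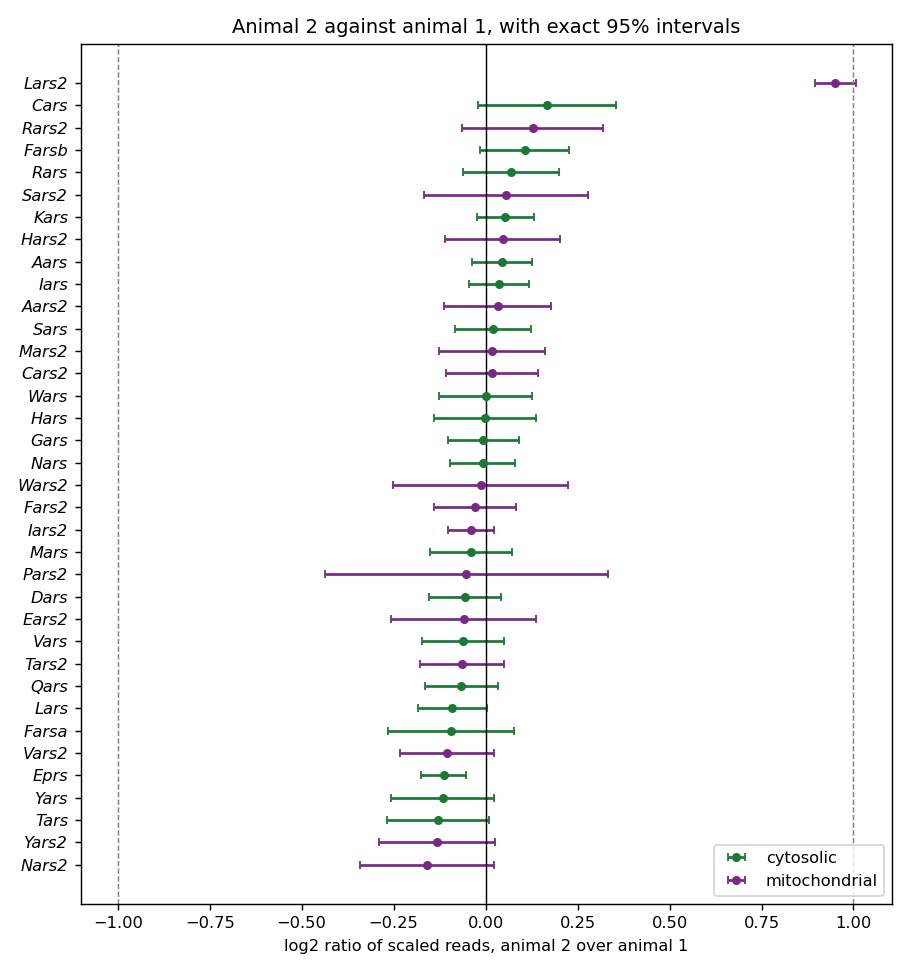
Log2 ratio of scaled reads, animal 2 over animal 1, for each of 36 genes, with exact 95% intervals that cover counting error only; green is cytosolic, purple mitochondrial, and dashed lines mark 2-fold. Lars2 stands alone at 0.95, while the other 35 genes lie between -0.16 and 0.17.

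Of 48 other genes of the pathway that were tested, 7 passed without a fold minimum (14.6%, beside 11.1% of all genes tested), 4 of them elongation factors. Among mitochondrial translation factors 1 of 9 passed without a fold minimum, Mtif2, lower in animal 2 at 1513 reads against 1589 in animal 1 (log2 ratio -0.15; adjusted p = 0.0435, exact binomial test). Of the 6 cytosolic elongation factors, 3 passed as higher in animal 2 (Eef1a1, Eef1a2, Eef2) and 1 as lower (Eef1d), with log2 ratios between -0.12 and 0.11. Of 14 genes of the amino acid response with at least 20 reads, only Atf4 passed, higher in animal 2 with a log2 ratio of 0.15. In the tRNA end processing and export list, where 5 of 6 genes were found, Trnt1, which adds the terminal CCA, was lower in animal 2 (log2 ratio -0.28; adjusted p = 0.0083, exact binomial test). Of the complex scaffolds 0 of 3 passed, of the amidotransferase and formylation genes 0 of 4, and of the editing genes 0 of 6, and Tarsl2 did not pass. Of the markers of other cell types, all 4 endothelial, all 4 fibroblast and all 4 mural markers passed as higher in animal 2. Their median log2 ratios were 0.18 for endothelial, 0.28 for fibroblast and 0.27 for mural genes. All 4 macrophage markers had log2 ratios above 0, and 2 passed. The 3 adipocyte markers with 20 reads or more all passed as higher in animal 2. Of the 6 cardiomyocyte markers 1 passed as higher in animal 2 and 3 as lower, and only 1 had a log2 ratio above 0. Of the 4 erythroid markers 1 passed as higher in animal 2 and 1 as lower, and 3 had log2 ratios above 0. The part of these cell types in the ratios of the synthetases was not tested.

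Both quantifications gave the excess of Lars2 reads in animal 2 mainly to Lars2-209, not annotated as protein-coding, though this split is an estimate. The protein-coding Lars2-201 was given 1612 reads in animal 2 and 1376 in animal 1 by the first transcript table, a scaled fold of 1.11. For Lars2-209, annotated as a target of nonsense-mediated decay, the reads were 6263 in animal 2 and 2466 in animal 1, a scaled fold of 2.41. In TPM, Lars2-201 stood at 12.7 in animal 2 and 9.77 in animal 1, and Lars2-209 at 51.3 in animal 2 and 18.2 in animal 1. The second quantification gave the same picture with more reads, 2025 in animal 2 and 1738 in animal 1 for Lars2-201 (1.11-fold) and 16679 in animal 2 and 7347 in animal 1 for Lars2-209 (2.16-fold). It also gave 2310 reads in animal 2 and 680.04 in animal 1 to Lars2-205, a retained intron transcript with 0 reads in both animals in the first table. The gene as a whole was at 270.02 TPM in animal 2 and 111 TPM in animal 1 in the second quantification, 4.09 times the main level on average.

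Lars2 transcripts are hard to tell apart from each other and share some sequence with other genes. Of the 31-base words of Lars2-209, 99.1% are also in Lars2-201, which leaves 35 words of its own, so the share of reads between these transcripts is an estimate. Over all Lars2 transcripts, 97 of 11160 words (0.869%) also occur in 39 other genes, and only those of AA474408 and Gm15564 were placed. Lars2-201 shares 26 words with AA474408 (chromosome 7) between bases 3172 and 3313, not as an unbroken stretch. It shares 22 words with Gm15564 (chromosome 16) between bases 3278 and 3329. Both ranges lie in the 3′ untranslated region, which starts at base 2909. AA474408 had 41 reads in animal 2 and 33 in animal 1 in the gene table but 5718 in animal 2 and 2427 in animal 1 in the second quantification, a difference in the direction of Lars2. Gm42418, a long non-coding gene on chromosome 17 known to overlap ribosomal RNA sequence, was 1.34-fold higher in animal 2 (95% interval 1.33 to 1.35; 106561 reads in animal 2 and 75412 in animal 1), and its neighbour Gm26917 1.05-fold (1.05 to 1.06). Their part in the Lars2 reads was not tested, and the level of Lars2 is reported as uncertain.

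**Figure D4:**
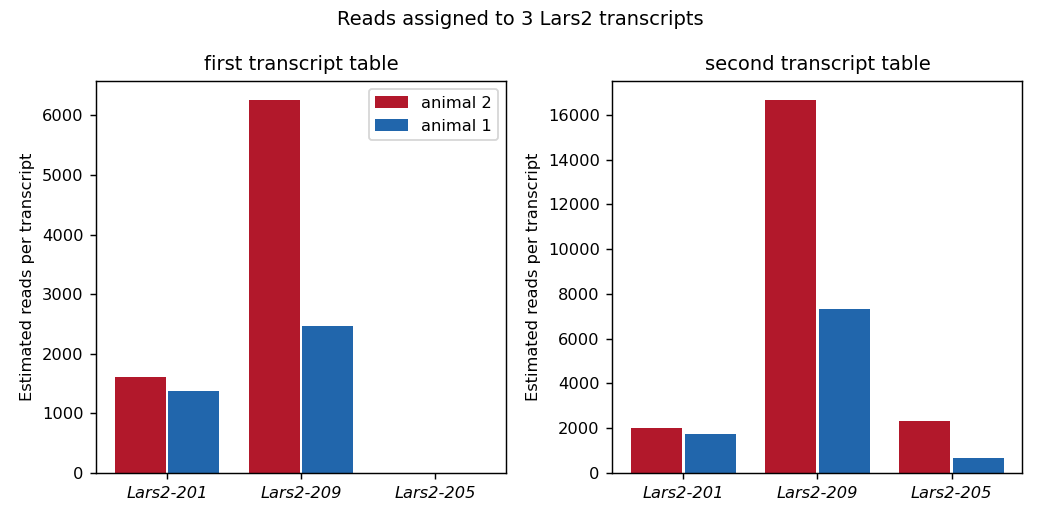
Estimated reads assigned to 3 Lars2 transcripts, with the first transcript table in the left panel and the second in the right one, on separate vertical axes that start at 0; red bars are animal 2, blue bars animal 1. Lars2-209 reaches 6263 reads in animal 2 and 2466 in animal 1 in the first table, while Lars2-201 is nearly level between animals.

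Many synthetase genes gave part of their signal to transcripts that are not annotated as protein-coding, namely retained introns, nonsense-mediated decay targets and processed transcripts. The median share of a member's TPM in such transcripts was 12.3%, at 8.88% for cytosolic genes and 14.7% for mitochondrial genes. As a mean of the animals it exceeded 50% in 5 genes and stayed under 5% in 13. High mean shares were those of Lars2 at 72.2%, Qars at 65.2%, Wars2 at 54.5% and Vars2 at 52.1%. For Wars2 and Vars2 the animals fell on both sides of 50%. Wars2 was at 46.6% in animal 2 and 62.5% in animal 1, and Vars2 at 57.1% in animal 2 and 47.0% in animal 1. For Qars, which has 34 annotated transcripts, the decay target Qars-231 took 47.8% in animal 2 and 44.7% in animal 1 in the first transcript table. In the second quantification its main transcript was the protein-coding Qars-201, at 27.6% on average, while 70.7% of the TPM lay outside protein-coding transcripts. At the low end, Mars2 has a single, protein-coding transcript, and Pars2, Iars2, Sars, Hars, Dars and Kars had shares between 0.463% (Pars2) and 1.30% (Kars).

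For 34 of the 37 genes the most abundant transcript was protein-coding in the first transcript table, Qars and Lars2 being among the exceptions. In the second quantification the count was 33, with Lars2 still an exception and Qars not. The main transcript held over 50% of the TPM in 26 genes. It was least dominant in Nars2, where Nars2-201 held 32.9% in animal 2 and 32.4% in animal 1, in Nars, where Nars-202 held 35.1% in animal 2 and 34.5% in animal 1, and in Fars2, where Fars2-205 held 40.7% in animal 2 and 40.2% in animal 1. For Nars2, Nars and Fars2 these shares were close between animals, but the second quantification named another main transcript for 8 of the 37 genes. For Kars, the gene of both compartments, Kars-201 held 60.8% in animal 2 and 65.4% in animal 1 in the first table and almost nothing in the second, where Kars-202 led with 57.9% on average. The split of Kars into its transcripts is thus not settled by these files, although the level of the whole gene, 51.2 ± 2.83 TPM in the second quantification, remained the highest of the cytosolic set.

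**Figure D5:**
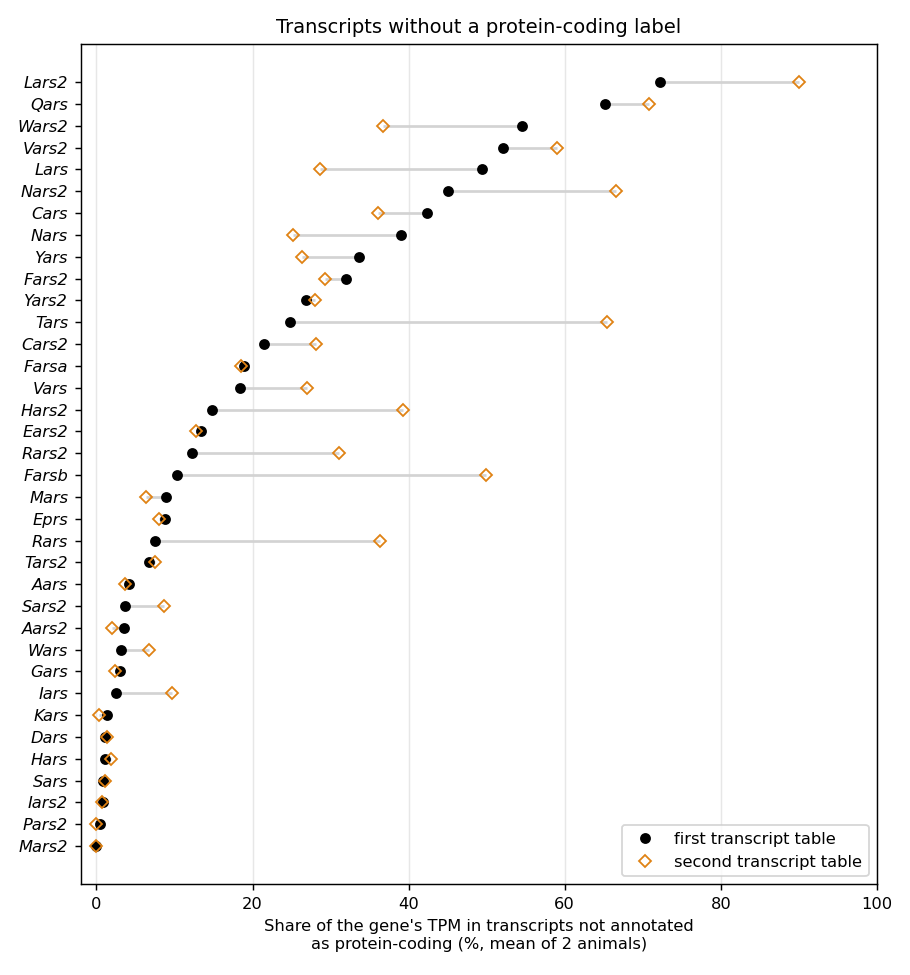
Share of each gene's TPM in transcripts not annotated as protein-coding, in percent and as a mean of 2 animals, in the first transcript table (filled circles) and the second (open diamonds). Of the 36 genes drawn, Lars2 and Qars are at the top in the first table with 72.2% and 65.2%, and Tars and Farsb show the widest gaps between tables.

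The whole-gene levels were steadier than the transcripts. The second quantification gave 0.875 to 2.06 times the main level for the 36 members other than Lars2, and more than 1.5 times for 5 genes in all, Lars2, Tars, Farsb, Cars and Nars2. In 35 of the 37 genes it was the higher of the estimates. In the main tables the posterior SD of the count was 0 for 35 members and at most 0.0577% of the reads for the others, Aars and Iars. Lars2, whose level is uncertain, is among those at 0, so an SD of 0 does not show that assignment was free of doubt. Of the 31-base words of Iars 14.7%, and of Aars 13.9%, also occur in other genes, the highest shares among the members. In the annotation 18 members overlap a gene on the opposite strand, among them Hars and Hars2, which overlap each other, and Mars, which overlaps Ddit3 (209 reads in animal 2 and 169 in animal 1). The sources do not say whether strand was used in counting, and reads of overlapping genes may be shared. How reads of the CAST alleles were placed on the mm10 reference, which is of C57BL/6, was not tested.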

How the data were processed

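Heart tissue of 2 mice was analysed, 1 library each. Per the labels and the deposited readme, reads were placed on mm10 with the M21 annotation; aligner and tool versions: not given in the sources used here. The authors' gene table and first transcript table hold expected counts, estimated reads per feature and not normalised, and TPM over all entries, spike-ins included, in RSEM layout per the file headers. Another transcript table, the second quantification, has the kallisto layout per the file headers, with the authors' estimated counts and TPM. Posterior SDs of counts are in the authors' tables.

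Symbols came from the second transcript table and coordinates from GENCODE M21. Levels are deposited TPM, as mean and SD (n = 2). For ratios, expected counts were rounded to whole numbers, genes with at least 20 reads were kept, and factors by TMM (trimmed mean of M values) came from edgeR 4.0.16 in R 4.3.3; edgeR's own test needs replicates within groups and was not used. Binomial tests used SciPy 1.17.1, with a prior count of 0.5 for log2 ratios. Intervals at 95% cover counting error only. Numbered entries that name no gene held 2 reads in animal 2 and 4 in animal 1 (4.76e-06% of reads in animal 2 and 9.5e-06% in animal 1) and were left out. The test was tried on simulated counts drawn with counting error alone, which cannot show how it behaves under variation between animals.

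All members are named except 1, which is counted in the sums and counts but not reported here; those described in full are the highest and lowest of each compartment, the extreme pairs, the extreme ratios between animals and the extremes of transcript use. Other pathway genes are the leading ones of each list and those that passed. AA474408, Gm15564, Trnt1, Eef1d, Gm26917, Gm42418 and the transcripts of Lars2 and Kars were chosen after their values were seen. The members and lists were chosen with earlier results of these data known. Promoter sequences are from RefSeq, GRCm38.p6.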

Additional observations from a re-analysis of the deposited data

How the results depend on the processing

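No paired analysis was possible because the study has 1 group. With either animal left out, which with 2 animals shows the range and no stability, the cytosolic sum ranged over 360.5 to 412 TPM, the mitochondrial sum over 197 to 257 TPM and their ratio over 1.60 to 1.83. In the second quantification the cytosolic sum was 472 TPM, the mitochondrial sum 402 TPM, their ratio 1.22 (0.982 in animal 2 and 1.47 in animal 1), the cytosolic median 20.4 TPM, the mitochondrial median 12.8 TPM, the median share outside protein-coding transcripts 25.2%, and 1 member, Lars2, passed the 2-fold test. With TPM rescaled to nuclear protein-coding genes the sums were 927 and 542 TPM and the medians 43.7 and 22.9 TPM, cytosolic before mitochondrial, with the ratio as before. Without Gars and Kars the cytosolic sum was 324 TPM, its median 16.2 TPM and the ratio 1.44. Over protein-coding transcripts alone, chosen after seeing the data, the sums were 319.7 and 152 TPM, the ratio 2.11 and the medians 13.2 and 6.67 TPM; without Lars2, likewise, the mitochondrial sum was 180.5 TPM and the ratio 2.14. Adding Tarsl2 moved no sum, median or ratio of sums beyond 1 SD, and the count over amino acids was not repeated with it. The cytosolic gene was higher for 11 of 16 amino acids in each animal alone. With both animals separated, the count was 10 on the main TPM. It was 11 in the second quantification, on the rescaled TPM and over protein-coding transcripts, where the valine pair was separated too. Scaled by total gene reads, 1 member passed at 2-fold (Lars2) and 6 without a fold minimum, all higher in animal 2 and without Eprs, and the median log2 ratios turned to 0.072 (cytosolic) and 0.050 (mitochondrial); the cytosolic median was 0.019 by spike-in reads and 0.021 in the second quantification. DESeq2 size factors (DESeq2 1.42.0) and no count filter kept both counts. Leaving out an animal gives no ratio between animals.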
